A study of Rattus norvegicus with 8 samples.

Results

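Neuropeptides are short signalling peptides cut from larger precursor proteins, and granins are acidic proteins that are packed with them into dense-core granules. This account describes 10 such genes in the brain of rat embryos at stage E12.5: the peptide precursors Sst, Tac1, Npy, Cck, Gal, Penk and Pomc, and the granins Scg2, Chga and Chgb. Every probe set that the platform annotation lists under 1 of these symbols alone was taken. That gave 11 probe sets on an array of 8799, reading 9 of the 10 genes, out of 4736 genes named in this way on the whole array. Sst and Tac1 had 2 probe sets each, and Chga was not analysed here because the annotation used lists no probe set under that symbol.

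The study asked which genes lie downstream of Pax6, a transcription factor needed for eye and forebrain development, and compared Pax6 homozygous embryos with wild-type embryos. There were 4 groups of 2 Affymetrix rat U34 arrays each: Pax6 homozygous forebrain, forebrain of wild-type embryos, Pax6 homozygous hindbrain, and hindbrain of wild-type embryos. The labels do not name the Pax6 allele, the strain or the number of embryos behind an array. A cut at the isthmus split each head, so the forebrain samples included midbrain, eye primordium and nose primordium, while the pharyngeal arches stayed with the hindbrain samples. The labels do not say whether a group's arrays stem from different litters, so the p-values below cover no more than the spread among these arrays, and that spread may be technical. In such bulk tissue, fewer cells of a type and less RNA per cell cannot be told apart.

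Peptide precursors enter the secretory pathway, are cleaved by prohormone convertases and carboxypeptidase E, and are often amidated before release. Receptors for most of these peptides are coupled to G proteins. In the embryo, peptide transcripts are known from early-born neurons of the brain and from neural crest derivatives such as sensory and sympathetic ganglia.

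Intensities were on a linear scale and 18.3% to 22.3% of each array's values were negative. The absolute value of an array's 5th percentile was therefore used as its noise level, from 243 to 620, and a probe set was called above noise on an array where its intensity exceeded that level. The 1st array of every group had a higher noise level (389 to 620) than the 2nd array of every group (243 to 352). Replicate arrays correlated at r = 0.899 to 0.947 over 5881 probe sets. The forebrain and midbrain marker Lhx2 was higher in forebrain by 2.39 ± 0.14 on the log2 scale (limma, adjusted p = 4.43e-05), and the summed intensity of 2 hindbrain markers was -19 to 198 on forebrain arrays, against 2129 to 3144 on hindbrain arrays. Pax6 itself had intensities of 1243 and 927 in Pax6 homozygous forebrain, against 1197 and 636 in wild-type forebrain, and did not pass the test there (0.30 ± 0.42 log2, limma, adjusted p = 1). In hindbrain it had 1194 and 1111 in Pax6 homozygous samples, against 827 and 531 in wild-type samples (0.80 ± 0.42 log2, limma, adjusted p = 0.989). RNA of a mutant allele can still be read by a probe set, so these values do not check the genotype labels. The summed intensity of 8 lens genes was 3596 to 4922 in Pax6 homozygous forebrain, against 10111 to 10694 in wild-type forebrain. Cryaa alone had 1303 and 683 in the former, against 4919 and 5254 in the latter. A separation of the genotypes in this direction was seen in forebrain for 10.5% of all probe sets tested. In forebrain 7 of the 8 lens genes had a negative log2 change and 1 a positive one, and none passed the test (limma). Over all genes tested, 1725 of 3553 had a negative one there. Only 2 of the 8 lens genes were above noise on all 8 arrays, so these signs rest in part on values below noise.

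Of the 9 genes with a probe set, 4 were above noise on both arrays of Pax6 homozygous forebrain, and 4 in wild-type forebrain. In both groups these were Sst, Tac1, Npy and Penk. Both arrays of Pax6 homozygous hindbrain had 5 genes above noise (Sst, Npy, Gal, Penk and Chgb), and both of wild-type hindbrain 4 (Sst, Npy, Penk and Chgb). Over all 8740 probe sets that are not array controls, the share above noise on both arrays was 48.5% in Pax6 homozygous forebrain, 47% in that of wild-type embryos, 54.9% in Pax6 homozygous hindbrain and 47.2% in wild-type hindbrain. The share of these genes above noise was thus close to that of the array as a whole. With the noise level multiplied by 2, the genes left were Sst and Tac1 in Pax6 homozygous forebrain, Sst and Penk in wild-type forebrain, Sst and Gal in Pax6 homozygous hindbrain, and Sst alone in wild-type hindbrain.

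**Figure D1:**
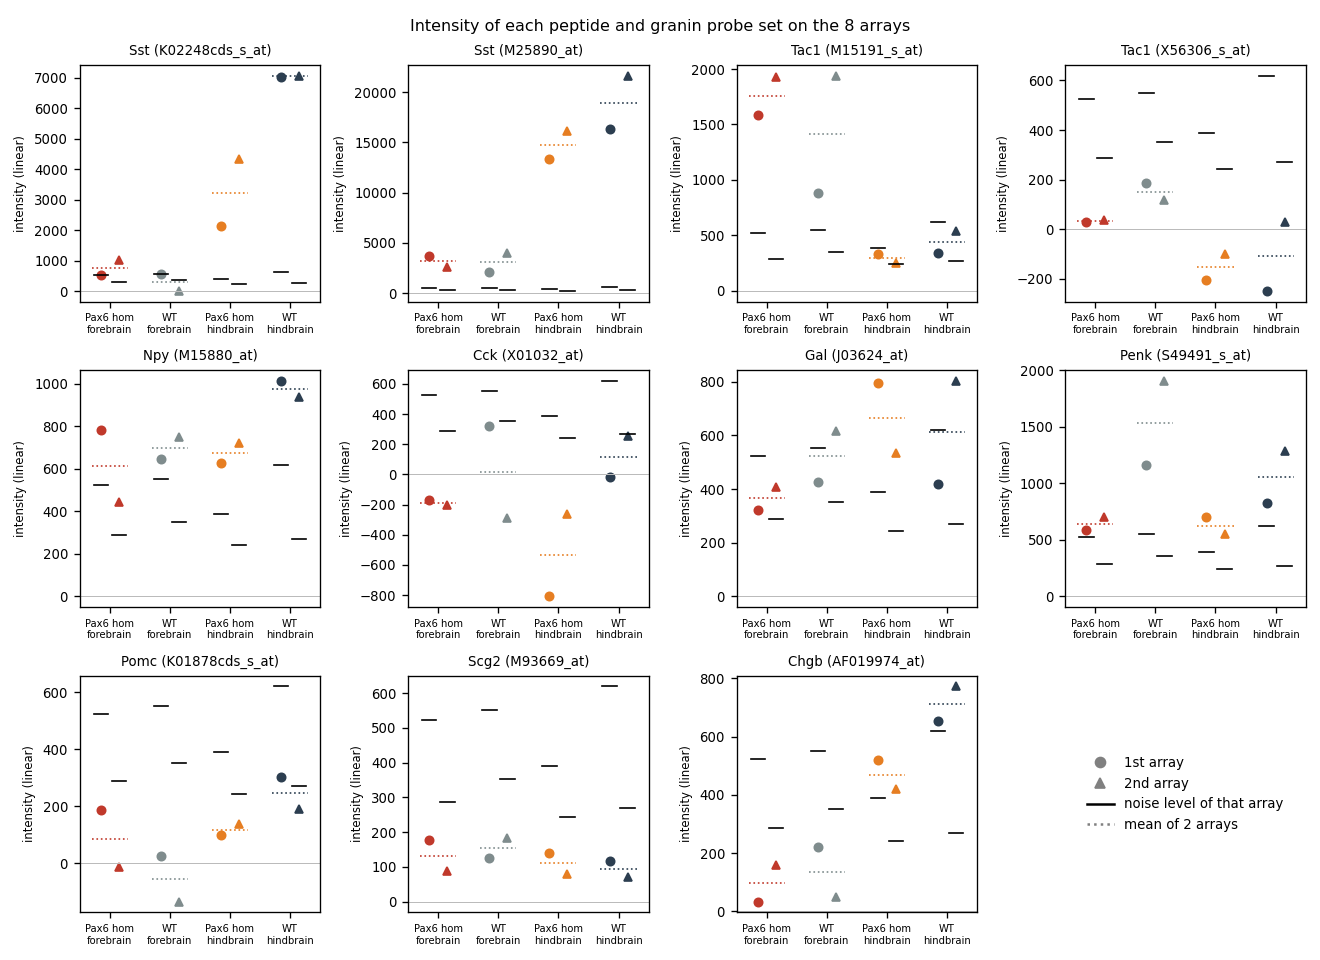
Intensity (linear scale, deposited values) of each of the 11 probe sets on the 8 arrays, with 1 panel per probe set and its own axis. Coloured circles and triangles are the 1st and 2nd array of a group, black bars the noise level of that array and dotted lines the group mean; Sst (M25890_at) stands far above the bars on all 8 arrays, while Cck, Pomc, Scg2 and the second Tac1 probe set do not exceed them on any.

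Sequence upstream of the transcription start was available from RefSeq (build GRCr8) for 7 of the 10 genes, as windows of 300 bases, 250 before the annotated start and 50 after it. The cyclic AMP response element, the palindrome TGACGTCA, is a binding site of CREB that was studied early on in the somatostatin promoter. It was found in 2 of these 7 windows, Sst and Scg2, and in 1.83% of all 33469 windows of this length. In the Sst window it begins 2 bases after RefSeq's annotated start. In the Scg2 window it begins 123 bases before the start of the window's transcript, which is not the outermost start of that gene. The letters TATAAA, searched on both strands, were found in 2 windows (Gal and Pomc), and in 14.2% of all windows. The Sst and Scg2 sequences are shown because they carry the element, Sst being above noise on all 8 arrays and Scg2 on none, and the Chgb sequence because its arrays separated by region in the same direction as those of Sst. Capitals mark the palindrome, and the Chgb window holds none.
Sst, chr11:90461296-90461565, plus strand: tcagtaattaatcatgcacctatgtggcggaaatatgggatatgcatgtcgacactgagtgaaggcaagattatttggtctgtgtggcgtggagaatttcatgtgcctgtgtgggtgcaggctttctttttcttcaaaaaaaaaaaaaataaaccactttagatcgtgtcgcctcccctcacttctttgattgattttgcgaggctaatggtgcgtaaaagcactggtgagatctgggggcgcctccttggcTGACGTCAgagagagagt
Scg2, chr9:88256972-88256999, minus strand: gctgagccggTGACGTCAgcgaggaatg
Chgb, chr3:140496462-140496731, plus strand: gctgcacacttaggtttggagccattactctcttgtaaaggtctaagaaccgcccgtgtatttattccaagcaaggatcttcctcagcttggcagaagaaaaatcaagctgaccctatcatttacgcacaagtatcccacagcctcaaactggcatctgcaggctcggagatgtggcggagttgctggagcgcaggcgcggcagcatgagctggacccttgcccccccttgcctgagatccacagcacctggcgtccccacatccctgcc
A match is a description of letters and not of binding, and no binding or methylation was measured in these samples.

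Region differences among these genes went both ways. Counted by its brightest probe set, Sst was lower and Tac1 was higher in forebrain than in hindbrain, and no other of the 7 tested genes passed the test. Over all 5881 probe sets tested, 1.51% passed in this comparison (limma, Benjamini-Hochberg adjusted p under 0.05), 0.289% being higher in forebrain and 1.22% lower. The median log2 change of the 7 tested genes, Cck and Chgb included, was -0.34, beside -0.01 over all 3553 genes tested.

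Sst encodes somatostatin, an inhibitory peptide that restrains hormone release and marks classes of interneurons in the mature brain. Its probe set M25890_at had intensities of 3678 and 2639 in Pax6 homozygous forebrain and 2133 and 4041 in wild-type forebrain. It had 13354 and 16130 in Pax6 homozygous hindbrain and 16296 and 21661 in wild-type hindbrain. All 8 values were above noise, by a factor of 3.87 at the lowest and 80.0 at the highest, and the 4 forebrain arrays all lay below the 4 hindbrain arrays. Such a separation in this direction was seen for 4.37% of all probe sets tested. The mean was 3123 ± 888 in forebrain, against 16860 ± 3473 in hindbrain (SD, n = 4 arrays each), a log2 change of -2.46 ± 0.22 (SE), or 5.49-fold lower in forebrain (limma, adjusted p = 0.00066). This call held in 15 of 15 alternative settings.

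Within each genotype the same probe set was lower in forebrain. In Pax6 homozygous samples the log2 change was -2.24 ± 0.32 (limma, adjusted p = 0.02), in a comparison where 0.459% of all probe sets passed. In wild-type samples it was -2.68 ± 0.32 (limma, adjusted p = 0.00525), where 0.782% passed. The wild-type call was lost without the 2nd wild-type hindbrain array (adjusted p = 0.0506). The homozygous call was lost without any 1 of the 4 homozygous arrays: the 1st forebrain array (adjusted p = 0.0659), the 2nd forebrain array (0.175), the 1st hindbrain array (0.108) or the 2nd hindbrain array (0.278). The difference between the 2 region effects, the interaction, was 0.44 ± 0.45 on the log2 scale and did not pass (limma, adjusted p = 1.00).

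The second Sst probe set, K02248cds_s_at, was above noise on 7 of 8 arrays. It had intensities of 524 and 1023 in Pax6 homozygous forebrain and 575 and 13.4 in wild-type forebrain. It had 2130 and 4341 in Pax6 homozygous hindbrain and 7015 and 7072 in wild-type hindbrain. The forebrain arrays again lay below all hindbrain arrays, and the 2nd wild-type forebrain array was below its noise level and at the floor of the log2 scale. The log2 change between regions was -3.75 ± 0.69 (limma, adjusted p = 0.0344), a size that depends on the floor, and the call was lost in 9 of 14 alternatives, 6 of which left out 1 array. Those were the 1st and the 2nd Pax6 homozygous forebrain array (adjusted p = 0.168 and 0.102), the 1st and the 2nd wild-type hindbrain array (0.109 and 0.123), and the 1st and the 2nd Pax6 homozygous hindbrain array (0.109 and 0.206). Neither genotype alone had a region call for this probe set. Within Pax6 homozygous samples its log2 change was -2.05 ± 0.98 (limma, adjusted p = 0.894). Within wild-type samples, with 1 forebrain array at the floor, it was -5.44 ± 0.98 (limma, adjusted p = 0.0512). This wild-type change passed in 3 of 15 alternatives, and its size ranged from -7.26 to -3.61 over all 15. The 2 Sst probe sets correlated at r = 0.743 over the 8 arrays on the log2 scale.

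Tac1 encodes preprotachykinin, the precursor of substance P and neurokinin A. Its probe set M15191_s_at had intensities of 1586 and 1928 in Pax6 homozygous forebrain and 884 and 1941 in wild-type forebrain. It had 335 and 251 in Pax6 homozygous hindbrain and 344 and 542 in wild-type hindbrain. The 4 forebrain arrays were above noise and above all 4 hindbrain arrays, a separation seen for 2.28% of all probe sets in this direction. In each hindbrain group only the 2nd array, the one with the lower noise level, was above noise.

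The Tac1 mean was 1585 ± 495 in forebrain, against 368 ± 123 in hindbrain (SD, n = 4 arrays each), a log2 change of 2.10 ± 0.34 or 4.27-fold (limma, adjusted p = 0.0183). With 1 array of each hindbrain group below noise, this size depends on values near or below noise. The log2 change ranged from 1.44 to 2.38 over 14 alternatives. The call was lost in 8 of 14 alternatives, with adjusted p from 0.00825 to 0.123 over all 14. It was lost without the 1st or the 2nd Pax6 homozygous forebrain array (0.0777 and 0.101), the 2nd wild-type forebrain array (0.0548), the 1st wild-type hindbrain array (0.0680), or the 1st or the 2nd Pax6 homozygous hindbrain array (0.0768 and 0.123). Within Pax6 homozygous samples the log2 change was 2.59 ± 0.48 (limma, adjusted p = 0.0651), and it passed with the array number as a block (adjusted p = 0.0294) and without the 1st wild-type forebrain array (0.0488). Within wild-type samples it was 1.60 ± 0.48 (limma, adjusted p = 0.401). The second Tac1 probe set, X56306_s_at, had intensities from -249 to 185, was above noise on 0 arrays and was not tested, so only 1 of the 2 probe sets of the gene shows the region difference.

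Chgb encodes chromogranin B, also called secretogranin 1, a granin of dense-core granules. It had intensities of 34 and 159 in Pax6 homozygous forebrain and 221 and 51.4 in wild-type forebrain. It had 518 and 420 in Pax6 homozygous hindbrain and 654 and 772 in wild-type hindbrain. No forebrain array and all 4 hindbrain arrays were above noise, and the regions did not overlap, which was so for 4.37% of all probe sets in this direction. The probe set entered the test only through its hindbrain arrays. Its region difference did not pass that test (limma, adjusted p = 0.124). Set against the noise level, which involves no test, Chgb was at least 1.39-fold lower in forebrain. The bounds were 1.20-fold in Pax6 homozygous samples and 1.61-fold in wild-type samples.

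The other tested genes had no region call. Npy encodes neuropeptide Y, a peptide of hypothalamic, cortical and sympathetic neurons. Its intensities were 782 and 443 in Pax6 homozygous forebrain, against 647 and 748 in wild-type forebrain. On hindbrain arrays they were 629 and 720 in Pax6 homozygous samples, against 1014 and 940 in wild-type samples. All 8 were above noise, and the regions overlapped (-0.34 ± 0.28 log2, limma, adjusted p = 0.916). The 2 wild-type hindbrain arrays were the highest of the 8.

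Gal encodes galanin, a peptide of hypothalamic and brainstem neurons. Its intensities were 320 and 409 in Pax6 homozygous forebrain, against 426 and 617 in wild-type forebrain. On hindbrain arrays they were 796 and 535 in Pax6 homozygous samples, against 419 and 803 in wild-type samples. Of these, 5 of 8 were above noise: the 4 second arrays and the 1st Pax6 homozygous hindbrain array. The regions overlapped (-0.51 ± 0.36 log2, limma, adjusted p = 0.859).

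Penk encodes proenkephalin, the precursor of the enkephalins, which act on opioid receptors. It was above noise on all 8 arrays and its regions overlapped (0.29 ± 0.28 log2, limma, adjusted p = 0.949). Its intensities on each array are given with the genotype comparison.

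The remaining genes were above noise on no array. Cck, which encodes cholecystokinin, had intensities of -170 and -204 in Pax6 homozygous forebrain, against 323 and -288 in wild-type forebrain. On hindbrain arrays they were -807 and -260 in Pax6 homozygous samples, against -20.1 and 256 in wild-type samples. It passed the filter of the test through 2 wild-type arrays, both below their noise level, so no change is given for it. Pomc, the precursor of ACTH, melanocyte-stimulating hormone and beta-endorphin, ranged from -135 to 301 over the 8 arrays. Scg2, which encodes secretogranin II, ranged from 71.9 to 184. Neither was tested. Over the whole array 34.2% of probe sets were above noise on 0 arrays, and at this noise level a low transcript cannot be told from an absent one.

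**Figure D2:**
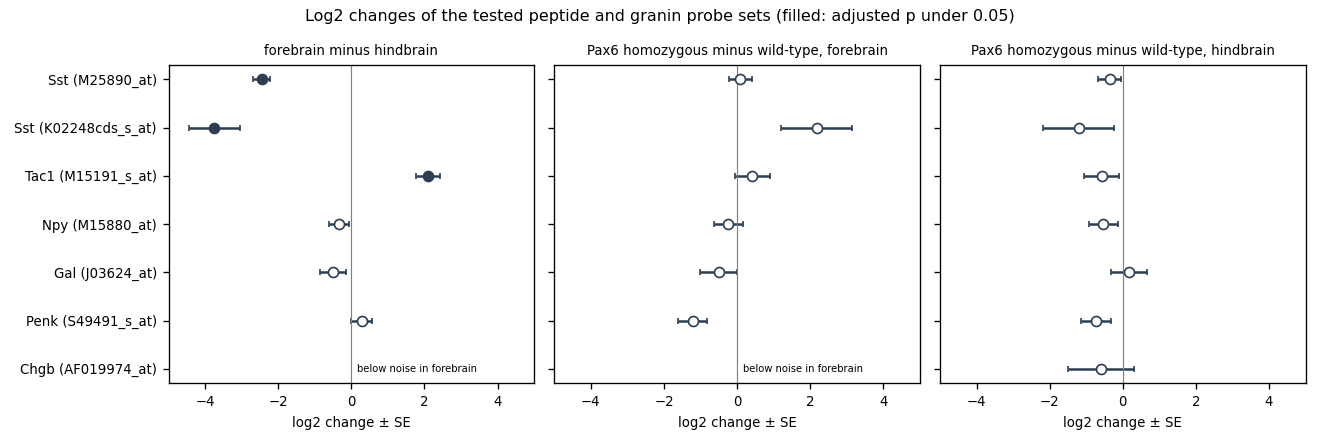
Log2 change ± SE (limma, 4 residual degrees of freedom) of the peptide and granin probe sets that were tested, Cck left out, in 3 comparisons; Chgb, below noise in forebrain, has a point only in the hindbrain panel. The comparisons are forebrain minus hindbrain over both genotypes, and Pax6 homozygous minus wild-type in forebrain and in hindbrain. Filled points passed the test and are found only in the region panel, for both Sst probe sets (negative) and Tac1 (positive).

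Between the genotypes, none of the 7 tested genes passed. The count was 0 in forebrain, in hindbrain, over both regions and in the interaction, while 0.017%, 0.017%, 0.034% and 0% of all probe sets passed in these comparisons (limma). At an unadjusted p under 0.05 the counts over all probe sets were 172, 264, 295 and 112, and of these genes, each by its brightest probe set, Penk alone was among them, in forebrain and over both regions. With the array number as a block the count of these genes was also 0 in each.

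Penk came nearest. Its intensities were 587 and 697 in Pax6 homozygous forebrain, against 1159 and 1905 in wild-type forebrain. They were 698 and 550 in Pax6 homozygous hindbrain, against 825 and 1283 in wild-type hindbrain. All 4 homozygous arrays lay below all 4 wild-type arrays, which was so for 1.19% of all probe sets. The mean was 633 ± 76.2 in Pax6 homozygous samples, against 1293 ± 451 in wild-type samples (SD, n = 4 arrays each). The log2 change over both regions was -0.97 ± 0.28 (limma, unadjusted p = 0.00788, adjusted p = 0.801). It was -1.22 ± 0.40 in forebrain (unadjusted p = 0.0148, adjusted p = 1) and -0.73 ± 0.40 in hindbrain (adjusted p = 0.989), and the interaction did not pass (-0.49 ± 0.57, adjusted p = 1.00). Over 14 alternatives the change over both regions stayed between -1.15 and -0.75, with adjusted p from 0.32 to 1.00.

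The summed intensity of 6 blood markers, of haemoglobin chains and the haem enzyme Alas2 among others, was 146685 to 147518 in Pax6 homozygous forebrain, against 172280 to 188918 in wild-type forebrain. In hindbrain it was 137137 to 141528 in Pax6 homozygous samples, against 154454 to 165947 in wild-type samples. On every array 4 haemoglobin genes made up at least 96.4% of the sum. Of the 6 genes, none passed the test (limma), 1 had a positive and 5 had a negative log2 change over both regions, and 5 were above noise on all 8 arrays. Over all genes tested, 1642 of 3553 had a negative change over both regions. The part of the blood markers in the Penk difference was not tested.

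The other genotype differences were smaller, relative to their standard errors, than that of Penk over both regions. In forebrain the log2 change was 0.09 ± 0.32 for Sst (M25890_at), 0.42 ± 0.48 for Tac1, -0.24 ± 0.40 for Npy and -0.50 ± 0.50 for Gal (limma, adjusted p = 1 for each), and none is given for Chgb, which was above noise on no forebrain array. The second Sst probe set had 2.17 ± 0.98 there (adjusted p = 1), with 1 wild-type array at the floor, and an interaction of 3.38 ± 1.38 (unadjusted p = 0.0381, adjusted p = 1.00). In hindbrain the log2 change was -0.36 ± 0.32 for Sst (M25890_at), -0.57 ± 0.48 for Tac1, -0.54 ± 0.40 for Npy, 0.17 ± 0.50 for Gal and -0.61 ± 0.90 for Chgb (limma, adjusted p = 0.991 to 1). In hindbrain the homozygous pair of arrays lay below the wild-type pair for Sst, Tac1, Npy, Penk and Chgb, a separation seen for 14.5% of all probe sets in this direction. None of these 5 differences passed the test. For Tac1 the 1st arrays, with 335 in Pax6 homozygous and 344 in wild-type hindbrain, were both below their noise level. The summed intensities of neuron and sensory ganglion markers were lower in Pax6 homozygous hindbrain as well, although 0 of 11 and 0 of 6 of these genes passed there (limma), and their part in these values was not tested. Over both regions all 7 tested genes, Cck and Chgb included, had a negative log2 change, with a median of -0.39, beside 1642 of 3553 genes and a median of 0.02 over all genes tested. Cck passed the filter only through wild-type arrays, so its sign was set by the filter, and the sign of Chgb rests in part on forebrain values below noise. The count was 5 to 7 over the alternatives.

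Genes of the same pathway were described from lists of known members. Of 16 proteins that process peptides or build granules, 13 were tested, and 1 passed between the regions (background 1.51%): Cadps, which primes dense-core granules for release. It had intensities of 1023 and 1516 in Pax6 homozygous forebrain and 1108 and 1239 in wild-type forebrain. It had 2574 and 2154 in Pax6 homozygous hindbrain and 2620 and 2801 in wild-type hindbrain. The regions did not overlap, which was so for 4.37% of all probe sets tested in this direction. Cadps was lower in forebrain by 1.06 ± 0.20 on the log2 scale (log2 change -1.06, limma, adjusted p = 0.0376).

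The amidating enzyme Pam had a log2 change of -0.55 (limma, adjusted p = 0.125) and the carboxypeptidase Cpe one of 0.14 (adjusted p = 0.998). The convertase Pcsk2 was above noise on no array. Scg3, which encodes the granin-binding protein secretogranin III, had intensities of 945 and 940 in Pax6 homozygous hindbrain, against 1714 and 1661 in wild-type hindbrain. The 2 homozygous arrays lay below the 2 wild-type arrays, a separation seen for 14.5% of all probe sets tested in this direction. The log2 change was -0.84 ± 0.29 and did not pass (limma, adjusted p = 0.989). In forebrain Scg3 had 1010 and 890 in Pax6 homozygous samples, against 962 and 900 in wild-type samples, and the genotypes overlapped. None of the 13 passed between the genotypes.

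Of 36 other peptide precursors, 29 had a probe set, 17 were tested and 1 passed between the regions (background 1.51%). This was Cartpt, the precursor of the CART peptides, which act in feeding and reward. It had intensities of -50.1 and 81.7 in Pax6 homozygous forebrain and 90.0 and 93.5 in wild-type forebrain. It had 527 and 866 in Pax6 homozygous hindbrain and 486 and 732 in wild-type hindbrain. The forebrain arrays lay below all hindbrain arrays (limma, adjusted p = 0.0176), a separation seen for 4.37% of all probe sets tested in this direction. Only 3 of the 8 arrays, all from hindbrain, were above noise. Cartpt entered the test only through its hindbrain arrays, so the filter and the call rest on the same high values. Set against the noise level, it was at least 1.63-fold lower in forebrain.

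Of 24 receptors of the peptides described here, 21 had a probe set, 9 were tested and none passed in any of the comparisons (limma). Sstr2, a somatostatin receptor, had intensities of 19.5 and 276 in Pax6 homozygous forebrain and 386 and 510 in wild-type forebrain. It had 780 and 1263 in Pax6 homozygous hindbrain and 1135 and 1297 in wild-type hindbrain. All forebrain arrays lay below all hindbrain arrays (limma, adjusted p = 0.11), a separation seen for 4.37% of all probe sets tested in this direction. Of the forebrain arrays, 0 of 2 Pax6 homozygous and 1 of 2 wild-type arrays were above noise, so no size is given. The tachykinin receptor Tacr2 had 639 and 835 in Pax6 homozygous hindbrain, against 316 and 273 in wild-type hindbrain. A separation of the genotypes in this direction was seen in hindbrain for 20.1% of all probe sets tested. The Tacr2 change did not pass (1.31 ± 1.01 log2, limma, adjusted p = 0.991). Only 1 of the 2 wild-type hindbrain arrays was above noise, and no forebrain array was. The receptors Cckbr and Npy1r were above noise on no array.

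Markers of neurons differed between the regions as well. Of 11 tested pan-neuronal genes, 3 were lower in forebrain and none was higher: the neurofilament genes Nefm (-2.78 ± 0.18 log2), Nefl (-2.61 ± 0.16) and Ina (-1.42 ± 0.14), with limma adjusted p of 7.8e-05, 6.31e-05 and 0.00121. Over all probe sets tested, 1.22% passed as lower in forebrain and 0.289% as higher. The median of the 11 pan-neuronal genes was -0.54 and 9 of the 11 were negative. Over all genes tested the median was -0.01, and 1845 of 3553 were negative. The summed intensity of the 11 genes was 39566 to 42177 in Pax6 homozygous forebrain and 43712 to 44420 in wild-type forebrain. It was 71681 to 76403 in Pax6 homozygous hindbrain and 90423 to 102358 in wild-type hindbrain. The 3 neurofilament genes made up 23.9% to 25.7% of the sum on forebrain arrays, against 53.8% to 60.9% on hindbrain arrays. Between the genotypes in hindbrain none of the 11 passed (limma). Of these genes 10 were above noise on all 8 arrays. The part of neuron content in the region differences of Sst, Tac1 and Chgb, of which that of Chgb did not pass, was not tested.

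The 6 tested sensory ganglion markers, genes of cells that the cut samples could hold as cranial ganglia, all had a negative log2 change. Over all genes tested, 1845 of 3553 had a negative one in this comparison. Only 1 of the 6 was above noise on all arrays, so these signs rest in part on values below noise. Of these 6, 2 passed as lower in forebrain: Prph, which encodes peripherin (limma, adjusted p = 0.00576), and Sncg, which encodes gamma-synuclein (-1.46 ± 0.25 log2, adjusted p = 0.0245). Over all probe sets tested 1.22% passed in this direction. Set against the noise level, which involves no test, Prph was at least 3.60-fold lower in forebrain. Prph was above noise on 0 forebrain arrays and 4 hindbrain arrays, and 1 forebrain array exceeded the intensity filter of the test. Between the genotypes in hindbrain none of the 6 passed (limma). The sum of the 6 was 3870 to 3910 in Pax6 homozygous forebrain and 3043 to 4220 in wild-type forebrain. On hindbrain arrays it was 7728 to 8804 in Pax6 homozygous samples and 12570 to 12787 in wild-type samples. Runx1, a factor of pain-sensing neurons, was above noise on no array. Of 9 catecholaminergic and autonomic markers none passed, the lowest adjusted p being that of Ddc (0.0681). The sum of these 9 was 4323 to 4366 in Pax6 homozygous forebrain and 3172 to 3702 in wild-type forebrain. On hindbrain arrays it was 7679 to 8239 in Pax6 homozygous samples and 6825 to 6868 in wild-type samples.

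The 5 tested markers of ventral forebrain and GABA neurons went both ways, with 3 positive and 2 negative log2 changes. The 2 that passed were higher in forebrain, the regional factors Nkx2-1 (4.11 ± 0.32 log2, limma, adjusted p = 0.000277) and Dlx5 (1.68 ± 0.30, adjusted p = 0.0286). Among all probe sets tested, 0.289% passed as higher in forebrain. Of the 4 hindbrain arrays, 2 were above noise for Nkx2-1 and 1 for Dlx5, so both sizes depend on values near or below noise. Isl1, a factor of motor and sensory neurons that is also among the sensory ganglion markers, had a change of -2.40 ± 0.50 (adjusted p = 0.0614). The sum of the 5 was 9126 to 10406 in Pax6 homozygous forebrain and 5659 to 7039 in wild-type forebrain. On hindbrain arrays it was 2905 to 3644 in Pax6 homozygous samples and 4785 to 5063 in wild-type samples. Nkx2-1 alone made up 60.8% to 73.8% of the sum on forebrain arrays. It had 6738 and 7300 in Pax6 homozygous forebrain, against 4011 and 4277 in that of wild-type embryos. A separation of the genotypes in this direction was seen in forebrain for 737 of all 5881 probe sets tested. The Nkx2-1 change between genotypes did not pass there (0.76 ± 0.46 log2, limma), and neither did that of any other of the 5 genes. The part of these lists in the differences of Sst and Tac1 was not tested.

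**Figure D3:**
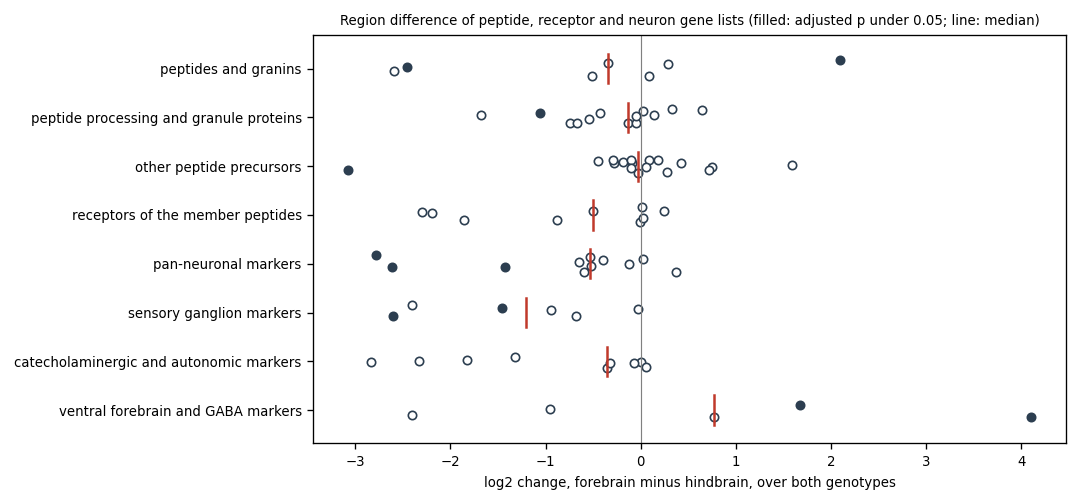
Log2 change, forebrain minus hindbrain over both genotypes, of every tested gene in 8 gene lists (1 row per list, 1 point per gene). Filled points passed the test (limma, adjusted p under 0.05), red lines are list medians, which are -0.34 for the peptides and granins (Cck included), -1.20 for the sensory ganglion markers and 0.77 for the ventral forebrain markers.

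The patterns of these genes over the 8 arrays were compared with those of all 3552 other tested genes by Pearson correlation of log2 values, as a description over arrays of the same 4 groups. Those most like Sst (M25890_at) were Ttr, which encodes the thyroid hormone carrier transthyretin (r = 0.990), S100a1 (0.989) and Arg1 (0.981). Those most like Tac1 were Ccne1 (0.988), Mrpl40 (0.958) and Dlk1 (0.957). Those most like Penk were Alas2 (0.957), C10h17orf49 (0.928) and Tle5 (0.883), and those most like Chgb were Enpp3 (0.976), Fntb (0.962) and Vat1 (0.950). For Npy they were B2m (0.974), Nexn (0.938) and Prkce (0.926), and for Gal Prr13 (0.917), Atp1b1 (0.901) and Cox8b (0.871). Chgb was below noise on 4 of these 8 arrays. Among the peptide and granin genes themselves, Sst and Chgb correlated at 0.76, Sst and Tac1 at -0.83 and Tac1 and Chgb at -0.85.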

How the data were processed

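Per the labels' protocols, TRIzol RNA was purified to poly(A) RNA, labelled as biotin cRNA and hybridised to Affymetrix rat U34 arrays. The authors deposited 1 linear intensity per probe set and array. The software that made these intensities is not given in the sources used here. The mean of each array without its lowest and highest values was 2504.1 to 2504.8, so the deposited scaling was kept. The number of arrays limits the precision.

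Of 8799 probe sets, 59 were controls. The platform annotation listed 7326, of which 7018 had 1 symbol, 308 had several (no gene was named from these), and 1473 were unlisted. Entrez identifiers of 6994 matched the RefSeq gene table. Intensities below the pooled 25th percentile (45.9) were set to it before log2. The test took the 5881 probe sets with intensities over 255, the pooled 40th percentile, on 2 or more arrays. All 8 arrays entered 1 model of 4 group means in limma 3.58.1 (R 4.3.3; lmFit, then eBayes with an intensity trend, 4 residual and 4.63 prior degrees of freedom), with two-sided p-values adjusted by Benjamini-Hochberg over all 5881 and a threshold of 0.05. Genotype changes are Pax6 homozygous minus wild-type, ± beside a log2 change is the standard error, and a gene with several probe sets was counted by its brightest. A fold against a region with no array above noise was computed after raising every array below its noise level to it, and is given as "at least". The code was tested on simulated data.

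The genes described and the gene lists were chosen with earlier results of these data known. Named genes were all 10 peptide and granin genes and, from each list, genes that passed the test or had the smallest p. Likeness was computed for genes above noise on at least 4 arrays.

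Same-numbered arrays of different groups deviated together (r = 0.275 to 0.465 over the 6 pairs of groups), so the array number was used as a block in an alternative. The other alternatives were another floor, no floor, no filter, quantile normalization, no trend, only the groups compared, the mean of probe sets, other noise levels and each array left out.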

Additional observations from a re-analysis of the deposited data

How the results depend on the processing

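Over 28 log2 changes and 415 values under alternatives, 366 kept their direction and their side of the threshold, 30 lost the call, 5 gained it and 14 changed sign. Every change of sign was in a genotype comparison that had not passed. With 1 array left out in turn, the log2 change between genotypes in forebrain ranged from -0.38 to 0.55 for Sst, -0.15 to 0.98 for Tac1 and -0.65 to 0.17 for Npy. In hindbrain it ranged from -0.30 to 0.64 for Gal. Over both regions it ranged from -0.37 to 0.10 for Sst, -0.36 to 0.20 for Tac1 and -0.40 to 0.069 for Gal. Over both regions Sst was 0.17 with the mean of its probe sets, and Tac1 was 0.18 with a floor at the pooled median and 0.047 without any floor. The cause was not tested.

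The count of peptide and granin genes called between regions over both genotypes, 2, was 1 with the floor at the pooled median or without the filter, and 1 to 2 with an array left out. In wild-type samples the count of 1 became 0 with that floor, without the filter, without the trend and with only the groups compared, and was 0 to 1 with an array left out. In Pax6 homozygous samples the count of 1 became 0 with that floor, without the filter, without the trend and with the mean of probe sets, was 2 with the replicate block, and was 0 to 2 with an array left out. With this block, 139 probe sets in place of 89 were called between regions over both genotypes, and 65 in place of 27 in Pax6 homozygous samples. It changed no other call of these genes. With the noise level multiplied by 2, the genes above noise numbered 2 in Pax6 homozygous forebrain, 2 in wild-type forebrain, 2 in Pax6 homozygous hindbrain and 1 in wild-type hindbrain.

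With 2 arrays a group and no detection calls, Cck, Pomc, Scg2 and the dim forebrain values of Chgb can be read only against noise, and Gal and hindbrain Tac1 were above noise mainly on 2nd arrays, where the noise level was lower.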
